A study of Saccharomyces cerevisiae with 8 samples.

Results

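Short transcript units were defined from transcript isoform sequencing (TIF-seq) of budding yeast as 100-nt stretches of the genome in which molecules ended on 1 strand, with at least 100 molecules over all libraries and a median span under 400 nt. The span is the distance on the genome between the 5′ end and the 3′ end of a molecule, both ends counted, so an intron would be included. By this rule 439 of the 6056 stretches with at least 100 molecules were short units, or 7.25%, and the remaining 5617 are called the other bins. Stretches with at least 1 molecule numbered 78657. The 439 units held 279761 of 8552677 yeast molecules, or 3.27%. Neighbouring units on 1 strand were joined into 395 loci, of which 355 held a single unit, 37 held 2, 2 held 3, and 1 held 4. Positions are 1-based on the SK1 assembly to which the authors mapped their reads. A unit is named by its chromosome, its stretch of 3′ ends, and its strand. No annotation of that assembly was used here, so no unit is given a gene name, and whether a unit lies in an exon, an intron, a UTR, or between genes is not stated.

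TIF-seq joins the 5′ and 3′ ends of 1 cDNA by circularization and reads both, so each molecule reports a start paired with its own end. The 5′ end carries the site of the cap, since capped RNA is selected by removing exposed 5′ phosphates before the cap is opened, and the 3′ end is set by priming from an oligo-dT primer. In budding yeast, short capped and polyadenylated RNAs come from several known sources. Small genes, such as those of ribosomal proteins and small stress proteins, give short mRNAs. Noncoding transcripts often end early through the Nrd1-Nab3-Sen1 pathway, and start sites inside genes give 5′-truncated transcripts. Premature cleavage and polyadenylation gives transcripts that share the start of a gene and stop early. During gametogenesis much of the transcriptome changes, with new start and end sites appearing as the transcription factors Ime1 and then Ndt80 act.

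All 8 libraries came from 1 diploid SK1 strain, FW2795, homozygous for IME1 under the copper-inducible CUP promoter (irt1::pCUP-3HA-IME1::HphMX), for NDT80 under the GAL promoter (ndt80::pGAL-NDT80::TRP1), and for a fusion of Gal4 with the estrogen receptor expressed from the GPD1 promoter (ura3::pGPD1-GAL4(848).ER::URA3). The strain also carried ho::LYS2 and the markers leu2::hisG, his3::hisG, trp1::hisG, lys2, and ura3 on both sets of chromosomes. Cells were moved to sporulation medium (SPO) and sampled over time, and equal amounts of the time points were pooled. The pm pool (premeiotic) covered 0 to 2 h in SPO, before any inducer was added. The T1 pool (early meiotic) covered 3 to 6 h, after 50 μM CuSO4 had been added at 2 h to induce IME1. The T2 pool (mid-late meiotic) covered 7 to 9 h, after 1 μM β-estradiol had been added at 6 h to induce NDT80. The T3 pool (return to growth) covered 15 to 120 min after cells had been shifted from SPO, where they had received CuSO4, to rich medium (YPD). Each pool had 2 replicates. A pool mixes time points, so a value stands for the mix and not for 1 time. The sources used here do not say whether a pool also held mock-treated samples. Fewer cells that make an RNA and less of it per cell cannot be told apart in such pools.

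The 8 libraries held between 552357 and 1820826 yeast molecules. The libraries differed in how many short molecules they held at all. Molecules under 200 nt made up between 0.400% (T1 replicate 2) and 6.47% (T2 replicate 2) of a library. In the spike-in RNA pGIBS-LYS, whose median span was 1057 nt, the share spanning under 400 nt ran from 4.37% to 12.5% by library. T2 replicate 2 and T3 replicate 2 stand apart with the highest shares under 200 nt, 6.47% and 4.12%, and the calls are also given without them. Levels are given as molecules per 1000000 yeast molecules of a library (mpm).

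The short units were spread over all 16 chromosomes and over a wide range of spans. Chromosome 4 held most, 63 units, and chromosome 1 fewest, 5 units. Of the 439 units, 234 lay on the plus strand. The median span of a unit ranged from 31 to 399 nt, with a median over units of 279 nt. The class from 300 to 400 nt held 197 units and 153663 molecules, and the class from 200 to 300 nt held 100 units and 47016 molecules. From 100 to 200 nt there were 88 units with 49057 molecules, and under 100 nt there were 54 units with 30025 molecules. Just inside the limit, the units at chr02:179801-179900 on the minus strand and chr11:122501-122600 on the plus strand had a median span of 399 nt, with 260 and 133 molecules. Just outside it, the bins at chr05:333201-333300 on the plus strand and chr02:556501-556600 on the minus strand had a median of 400 nt, with 1378 and 360 molecules. At the other limit, chr07:491201-491300 on the minus strand and chr11:400201-400300 on the plus strand entered with exactly 100 molecules, while chr07:865601-865700 on the plus strand and chr13:116801-116900 on the minus strand stayed out with 99.

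The number of units depended on the shortest molecules. With molecules under 100 nt left out, 377 units remained and 62 were lost, 57 because fewer than 100 molecules were left and 5 because the median rose to 400 nt or more. No molecule under 100 nt was found in 157 units, and in 54 units such molecules made up more than 50% of the total. Of the 62 lost units, 48 had a median under 100 nt.

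**Figure D1:**
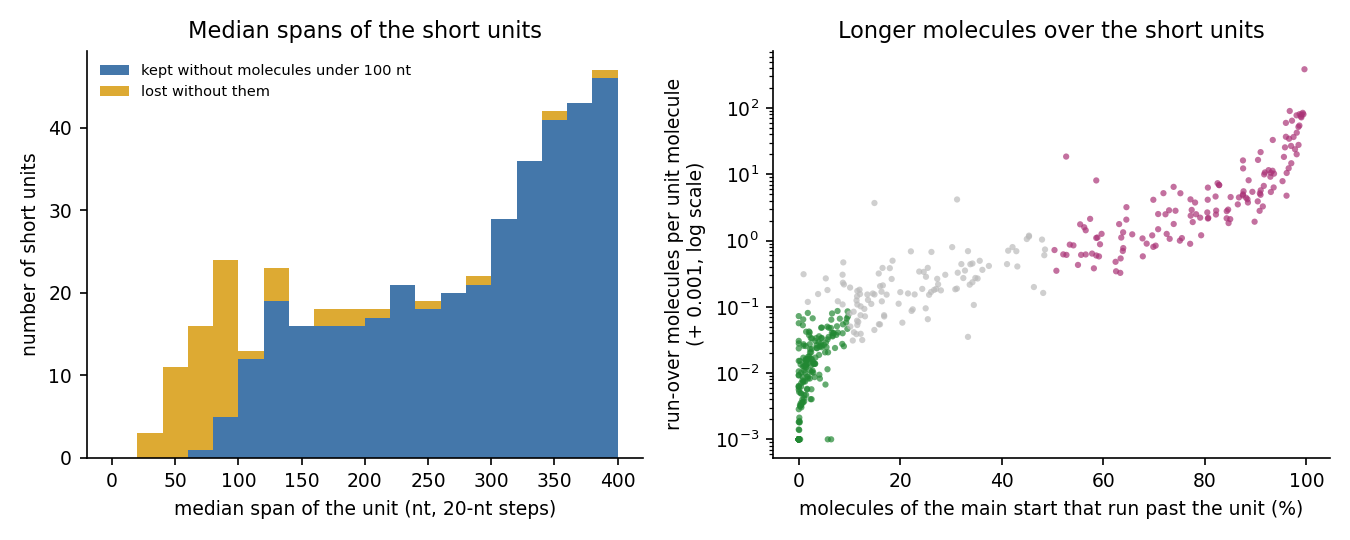
Left, number of short units by median span in 20-nt steps, split into the 377 units kept and the 62 lost when molecules under 100 nt were left out. Right, 1 point per unit: the percent of molecules from the main start that ended more than 100 nt past the unit (x axis) against the number of molecules running over the whole unit per molecule ending in it (y axis, log scale, 0.001 added), with the 187 stand-alone units in green, the 141 units whose start mostly ran past in magenta, and the other 111 in grey. Lost units lie mostly under 100 nt.

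Most units were small, and a few held much of the total. The median unit had 227 molecules (range 100 to 12254), against 350 in the other bins. There were 62 units with 1000 molecules or more and 192 with under 200. The 10 largest units held 24.3% of all molecules in short units and the 50 largest 58.2%. Molecules of a unit gathered at its main ends. The window of 5 nt on either side of the most used start held a median of 37.5% of a unit's molecules (33.8% in the other bins), and the same window around the most used end held 80.5% (60.5% in the other bins). A unit is bounded by a 100-nt stretch of ends, as are the other bins, so the share around the end is compared between stretches of equal width.

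A short unit is not in every case a separate transcript. A pair of measures was used to describe what else ran through each unit, neither of them part of the rule: the share of molecules from the same main start that ended more than 100 nt beyond the unit, and the number of molecules of the same strand that ran over the whole unit. In the median unit 13.0% of the molecules from the main start ran past, against 0.12% in the other bins. At least 50% of the start's molecules ran past in 141 units (32.1%), against 288 of the 5617 other bins (5.13%). As many molecules ran over the unit as ended in it, or more, in 121 units (27.6%), against 333 other bins (5.93%). With under 10% running past and under 0.1 run-over molecules per unit molecule, 187 units (42.6%) stood alone, against 4607 other bins (82.0%). Neither measure covers longer molecules that end in the unit itself, so a stand-alone unit can hold them. In 153 of the 439 units (34.9%), molecules of 400 nt or longer made up 10% or more. Short and long bins differ in how far past them a longer molecule can be seen, so these shares are a description and were not tested.

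These 3 kinds of unit differed in span. The 187 stand-alone units had a median span of 326 nt and held 175995 molecules. The 141 units that shared their main start with mostly longer molecules were shorter, with a median of 198 nt and 73254 molecules, and carried a median of 3.75 run-over molecules per unit molecule. The remaining 111 units had a median span of 269 nt and 30512 molecules.

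At chromosome ends, 4 units (0.911%) lay within 10000 nt of the first or last mapped position, against 45 other bins (0.801%). Starts on the opposite strand within 300 nt upstream of the main start, the arrangement of a divergent promoter, numbered a median of 9 molecules for the short units and 4 for the other bins. In 54 units (12.3%) these divergent starts were at least as many as the molecules of the unit itself, against 415 other bins (7.39%). Overlap with transcripts of the opposite strand was compared per library, as the share of the stretch from the median start to the main end that such molecules covered. The mean over libraries of the median share was 12.3% in short units and 16.3% in the other bins, a difference of -4.01 percentage points. Short units had the higher median in 3 of 8 libraries, and an exact two-sided sign-flip permutation test over the libraries gave p = 0.359 (the smallest p it allows is 0.0078). The median was 0 for the short units in 5 of 8 libraries. The share of units with any overlap was lower than that of the other bins in all 8 libraries, from 34.4% against 59.6% and 44.4% against 73.6% in pm to 28.9% against 50.2% and 25.97% against 43.4% in T3. By the rule the stretch compared is shorter in a short unit, so the shares with any overlap were not tested. The shorter stretch may also affect the median shares. All libraries measure the same loci, so the p of the permutation test covers only the spread between libraries.

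The largest units showed the range of patterns. The unit with most molecules, at chr04:144901-145000 on the minus strand, had 12254 molecules with a median span of 313 nt. It held 2109 and 1463 mpm in pm, 255.9 and 345.0 in T1, 270.4 and 623.0 in T2, with 4966 and 5560 in T3. Both T3 libraries were above both pm libraries, and these were above all 4 meiotic libraries. It was lower in T1 than in pm (log2 change -3.07 ± 0.41 SE, adjusted p = 0.00144) and higher in T3 than in T1 (5.50 ± 0.39, adjusted p = 8.26e-06) in limma with Benjamini-Hochberg adjustment over all 6056 bins. The first call was lost in 1 of 18 other settings, where libraries were scaled on the short units alone (adjusted p = 0.238), and the second kept its call in all 18. Its median span lay between 310 and 315 nt in every library, and 0.1% of the molecules from its main start ran past it.

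The second largest, at chr04:236101-236200 on the minus strand, had 10729 molecules and a median span of 304 nt (300 to 306 nt over the libraries). Its level was 1524 and 4099 mpm in pm, 175.2 and 497.7 in T1, 1152 and 657.8 in T2, with 611.6 and 1231 in T3. The pm libraries were highest and the T1 libraries lowest, and T2 and T3 overlapped each other. It fell from pm to T1 (-3.74 ± 0.73, adjusted p = 0.00671). This call was lost without pm replicate 2 (0.0812), without T1 replicate 1 (0.0833), and with libraries scaled on the short units alone (0.127). The rise from T1 to T3 (2.93 ± 0.80, adjusted p = 0.0162) was called in 13 of 18 other settings. It was lost without T1 replicate 1 (2.03, adjusted p = 0.137) or T3 replicate 2 (2.59, 0.103), by library totals (1.56, 0.0734), with the trend over span described below removed (1.64, 0.168), and scaled on the short units alone (0.49, 0.695).

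The third, at chr04:1453801-1453900 on the minus strand, shared its start with a longer transcript. It had 7947 molecules with a median span of 390 nt, at 367.8 and 785.9 mpm in pm, 651.9 and 743.0 in T1, 449.0 and 1197 in T2, with 1641 and 3094 in T3. T3 was above all other libraries, and the other pools overlapped. The change from T1 to T3 was called (3.00 ± 0.53, adjusted p = 0.0018) in 17 of 18 other settings. Of the molecules from its main start, 67.7% ran past. The share that ended in the unit was 12.8% in pm (exact 95% interval 11.99 to 13.6%, 863 of 6754 molecules), 34.4% in T1 (32.6 to 36.1%), 21.4% in T2 (20.2 to 22.6%), and 25.97% in T3 (24.9 to 27.05%), both replicates summed. These intervals, and those below, cover counting error only and not the spread between replicates. The replicates differed by more than these intervals, with 20.7% and 11.7% in pm, 28.8% and 48.9% in T1, 13.6% and 39.5% in T2, with 21.5% and 31.8% in T3, so the T2 replicates spanned most of the range of the other pools.

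The unit at chr12:322501-322600 on the plus strand (5035 molecules, 359 nt) stayed between 395.7 and 1084 mpm in the 8 libraries and was called in no contrast (adjusted p between 0.0709 and 0.171), though T3 against T1 was called in 4 of 18 other settings. The unit at chr16:30401-30500 on the plus strand (4359 molecules, 336 nt) had 905.5 and 1096 mpm in pm, above the 235.4 to 474.6 of the other 6 libraries, and fell from pm to T1 (-1.98 ± 0.35, adjusted p = 0.00468). That call ended without T1 replicate 1 (0.0522), with libraries scaled on the short units alone (0.795), and with the trend over span removed (-0.92, adjusted p = 0.122). The unit at chr13:755001-755100 on the minus strand (4841 molecules, 385 nt) had 448.6 and 1357 mpm in pm, 169.2 and 272.2 in T1, 1071 and 383.1 in T2, with 84.04 and 119.5 in T3. Its fall from pm to T1 was called (-2.48 ± 0.75, adjusted p = 0.0371), as was its rise from T1 to T2 (2.55 ± 0.75, adjusted p = 0.0452), but these calls held in only 11 and 6 of 18 other settings. The fall was lost without pm replicate 2 (0.322) or either T1 or T3 library (0.0603 to 0.222), and the rise without either T1 or T3 library or T2 replicate 1 (0.076 to 0.281).

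The share of all molecules that fell into short units differed between pools and between replicates. It was 3.23% and 3.33% in pm (mean 3.28% ± 0.070 SD, n = 2), 1.68% and 1.87% in T1 (1.78% ± 0.132), 2.89% and 8.21% in T2 (5.55% ± 3.76), with 3.00% and 5.49% in T3 (4.24% ± 1.76). Both T1 libraries lay below all others, and the T2 replicates lay farther apart than the means of the pm and T1 pools. The T1 and pm replicates do not overlap, but no test was run, since 0.333 is the smallest p that permuting 2 libraries against 2 allows. The short molecules outside the short units differed between libraries as well. Under 400 nt were 3.58% and 5.66% of them in pm, 3.06% and 2.03% in T1, 2.81% and 7.63% in T2, with 3.17% and 5.603% in T3. In the spike-in the same share was 4.93% and 12.5% in pm, 9.11% and 5.24% in T1, 6.63% and 12.2% in T2, with 4.37% and 8.57% in T3. The part of this difference between libraries in the changes of the short units was not tested. Of all molecules under 400 nt, 43.9% ended in short units (31.7% to 52.3% per library).

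**Figure D2:**
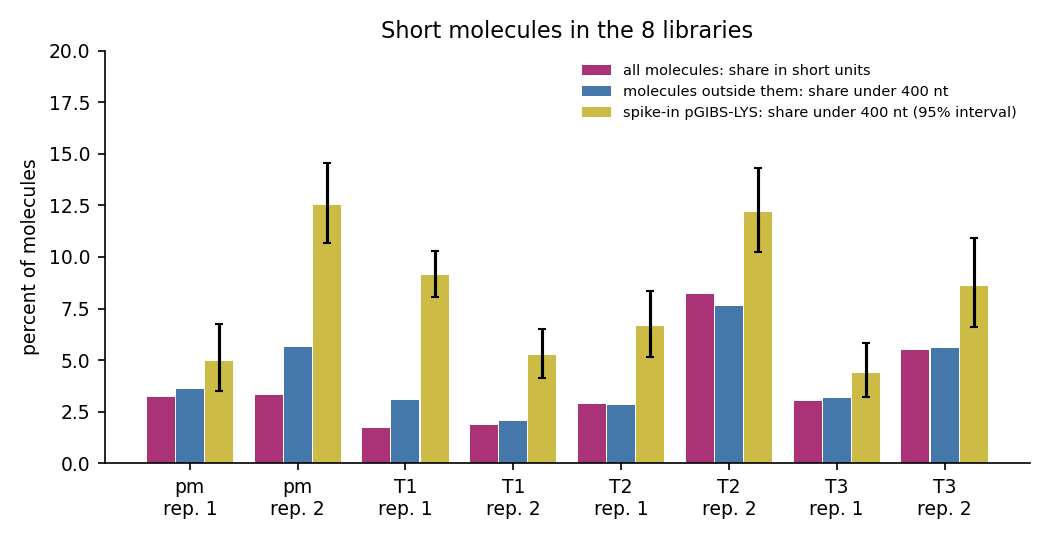
For each of the 8 libraries, the percent of all yeast molecules that ended in short units, the percent under 400 nt among molecules outside the short units, and the percent under 400 nt among molecules of the spike-in pGIBS-LYS with its exact 95% interval. T2 replicate 2 is highest in the first 2 measures at 8.21% and 7.63%, and both T1 libraries are lowest in the first at 1.68% and 1.87%.

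Which pool held a short unit at its highest depended on T2 replicate 2 and T3 replicate 2. By the mean level of both replicates, 186 units (42.4%) were highest in T2, 121 (27.6%) in T3, 99 (22.6%) in pm, and 33 (7.52%) in T1. Of the other bins, 1221 (21.7%) were highest in T2, 875 (15.6%) in T3, 1114 (19.8%) in pm, and 2407 (42.9%) in T1. Without T2 replicate 2, a choice made after the data were seen, 102 units (23.2%) were highest in T2, 155 (35.3%) in T3, 128 (29.2%) in pm, and 54 (12.3%) in T1, while 1234 of the other bins (22.0%) were highest in T2 and 2431 (43.3%) in T1. With T3 replicate 2 left out as well, 150 units (34.2%) were highest in pm, 126 (28.7%) in T3, 105 (23.9%) in T2, and 58 (13.2%) in T1. Of the other bins, 1061 (18.9%) were then highest in pm and 2407 (42.9%) in T1. At least 80% of the scaled signal lay in a single pool for 112 units (25.5%), against 647 other bins (11.5%). This pool was T2 for 60 units, T3 for 41, pm for 10, and T1 for 1. Without T2 replicate 2 the numbers were 48, 58, 16, and 6, and without T3 replicate 2 as well they were 49, 35, 18, and 7. The floor of 100 molecules was set on the sum of all libraries, so such a unit could pass through its high pool alone. In the opposite sense, 301 units had at least 1 molecule in every library.

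To ask how the units changed at each transition, molecules per bin were compared in 1 limma voom fit of all 8 libraries. A bin was called where the level changed 2-fold or more and the adjusted p was below 0.05. The T1 libraries enter all 3 contrasts, whose calls are therefore not compared with each other. From pm to T1, 103 of 439 units were called, 16 higher and 87 lower, where 23.8% of all bins were called (11.2% higher and 12.6% lower). The median log2 change was -1.67 over the short units and 0.03 over all bins. From T1 to T2, 107 units were called, 106 higher and 1 lower, where 15.5% of all bins were called (12.7% higher and 2.79% lower), and the median change was 1.87 against 0.12. This median was 3.01 without T2 replicate 1 and 1.09 without T2 replicate 2. From T1 to T3, 192 units were called, 168 higher and 24 lower, where 38.6% of all bins were called (18.9% higher and 19.7% lower), with a median of 2.18 against -0.43. Units without a molecule in 1 of the pools compared set no fitted change of known size. With them at the bound given by 3 molecules in the empty pool, the medians were -1.69, 1.86, and 2.30. Many called units reached the floor of 100 molecules only with the pool in which they were high, so these counts are a description. Outside that pool under 100 molecules were found in 8 of the 16 higher and 32 of the 87 lower units in T1 against pm, in 69 of the 106 higher ones in T2 against T1, and in 71 of the 168 higher and 11 of the 24 lower ones in T3 against T1.

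These counts rested on the scaling and on single libraries. Scaled by library totals, the median of all bins moved to 0.53, -0.76, and -1.80, and that of the short units to -1.15, 0.95, and 0.84. The share of higher among the called units was then 23.3%, 92.9%, and 63.9%, in place of 15.5%, 99.1%, and 87.5%. The calls over all bins moved with single libraries as well. For T1 against pm the number of called units fell to 11 without pm replicate 2, to 19 without T1 replicate 1, and to 35 without T1 replicate 2, where 4.34%, 6.69%, and 9.48% of all bins were called, and rose to 214 without either T2 replicate (35.3% of all bins). For T2 against T1 it fell to 23, 36, and 70 without T1 replicate 1, T1 replicate 2, and T3 replicate 2 (4.05%, 5.52%, and 10.7% of all bins), and rose to 246 without T2 replicate 1 (15.8%). For T3 against T1 it fell to 114, 115, and 90 without the same 3 libraries (27.2%, 28.2%, and 16.9%). Without both T2 replicate 2 and T3 replicate 2, a choice made after the data were seen, 214, 125, and 203 units were called (33.9%, 23.1%, and 34.7% of all bins), and every called change in level whose test is printed here kept its call.

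The direction followed the span across the whole genome and did not begin at 400 nt. From pm to T1 the median log2 change was -2.42 in bins with a median span under 100 nt, -2.17 from 100 to 200 nt, -1.62 from 200 to 300 nt, and -1.04 from 300 to 400 nt. It went on through -0.96 (400 to 500 nt), -0.66 (500 to 600 nt), and 0.01 (600 to 800 nt) to 0.52 at 1200 nt or more. From T1 to T2 the order was the reverse, with 2.68, 2.47, 1.93, and 1.27 in the 4 short classes, 1.04 and 0.67 in the next classes, and -0.38 at 1200 nt or more. From T1 to T3 the short classes had 3.18, 3.85, 2.59, and 0.76, the next class 0.19, and the longest -1.08. The share of molecules under 200 nt was lowest in the T1 libraries (0.873% and 0.400%, against 1.05% to 6.47% in the others). In the spike-in the share under 400 nt was 9.11% and 5.24% in T1, within the range of 4.37% to 12.5% over the libraries. The spike-in share under 100 nt was 0.681% and 0.0698% in T1, against 0.497% to 2.01% in the others. The part of these shares in the trend was not tested.

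**Figure D3:**
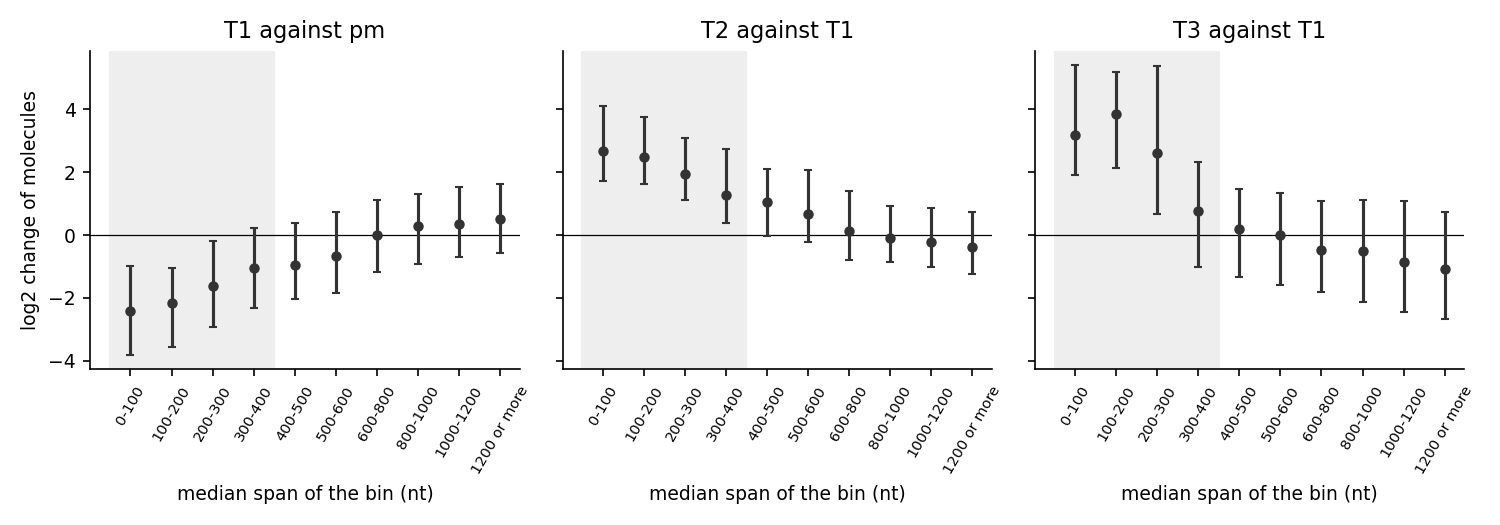
Median log2 change of molecules per bin (points) with quartiles (bars) by class of median span, for each of the 3 contrasts, over all 6056 bins, with the 4 classes of short units on grey. The medians pass smoothly from the short units to longer bins, from -2.42 to 0.52 in the first contrast, 2.68 to -0.38 in the second, and 3.18 to -1.08 in the third.

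When a smooth trend over the span was taken out of each library, an alternative added after the data were seen, the median changes of the short units were -0.14, 0.009, and 0.32. Short units are defined by their span, so taking out the trend centres them by construction, and nothing is read from the balance of higher and lower units. From pm to T1, 42 units were then higher and 41 lower, where 10.3% and 13.4% of all bins were called. From T1 to T2, 47 were higher and 30 lower (11.3% and 4.11% of all bins), and from T1 to T3, 97 were higher and 66 lower (22.7% and 13.7%). Higher units were 50.6%, 61.0%, and 59.5% of those called. Of the units called in the fit without the trend, 41 of 87 lower ones and all 16 higher ones kept their call in T1 against pm. In T2 against T1 47 of 106 higher ones and the 1 lower one kept it, and in T3 against T1 96 of 168 higher ones and all 24 lower ones. Taking out the trend moved the short units up in T1 against pm and down in the other contrasts. Calls against the trend were thus pushed away from 0, and nothing is read from their being kept. No unit was called in opposite directions by these fits. The units named below as those with the largest changes kept direction and call in both the scaling by totals and the fit with the trend removed.

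Calls were also counted by kind of unit. From pm to T1, 10 of the 187 stand-alone units were higher (5.35%) and 39 lower (20.9%), and 3 of the 141 units with a shared start were higher (2.13%) and 30 lower (21.3%), where 11.2% and 12.6% of all bins were called. From T1 to T2, 51 stand-alone units were higher (27.3%) and 1 lower (0.535%), and 28 units with a shared start were higher (19.9%) and 0 lower, against 12.7% and 2.79% of all bins. From T1 to T3, 62 stand-alone units were higher (33.2%) and 15 lower (8.02%), and 64 units with a shared start were higher (45.4%) and 3 lower (2.13%), against 18.9% and 19.7% of all bins. The difference between the kinds was not tested.

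**Figure D4:**
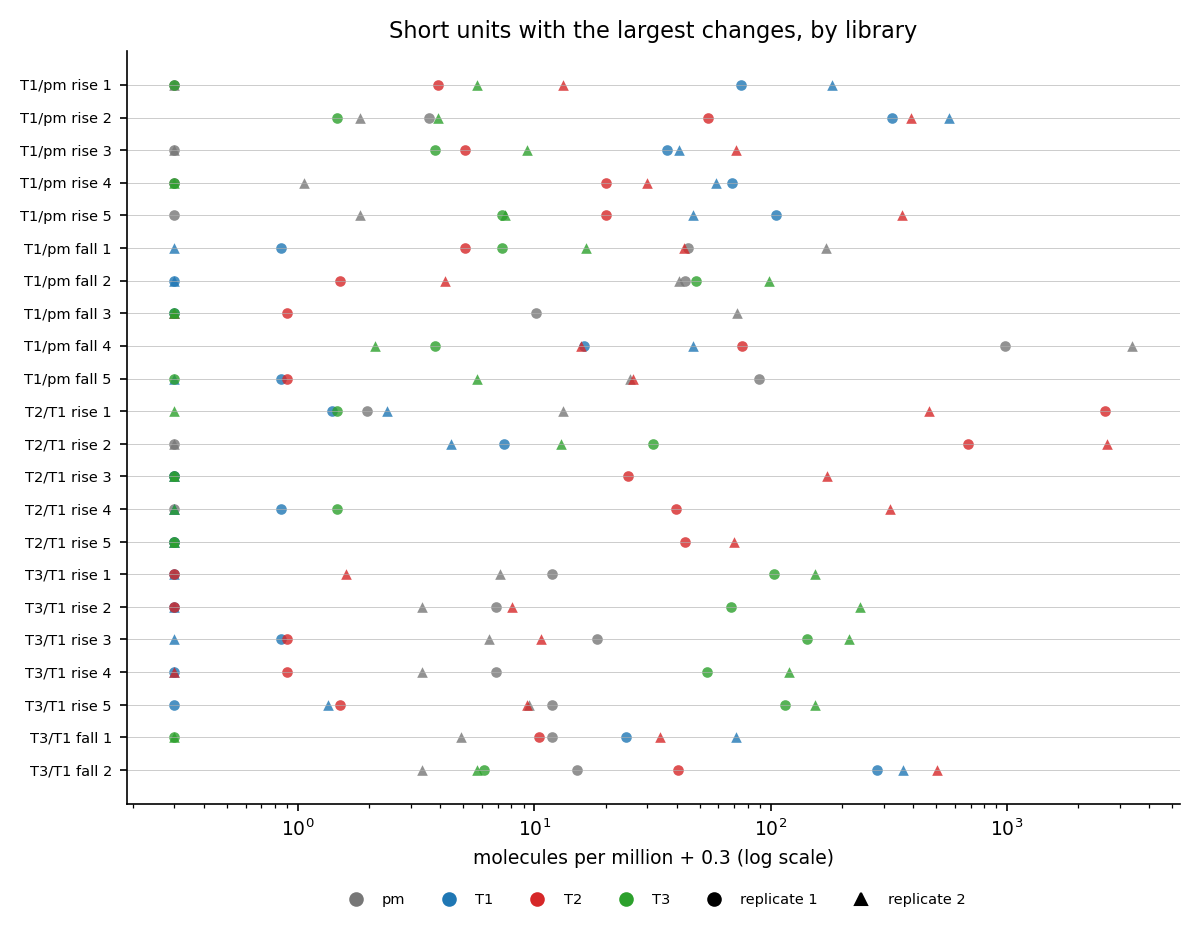
Level in mpm (x axis, log scale, 0.3 added) in the 8 libraries for the 22 units with the largest called changes, labelled by contrast and direction, numbered by the size of the fitted change, and shown once if named for several contrasts. Colours mark the pools, circles replicate 1 and triangles replicate 2. The 5 rises from T1 to T2 have both T2 libraries above all others, and the 5 rises from T1 to T3 have both T3 libraries above all others.

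The units with the largest changes are given next. In 20 of these 26 changes the unit held under 100 molecules outside the pool in which it was high and so entered through that pool. The exceptions were both changes of chr04:1318201-1318300, the rise of chr16:244701-244800, and the falls of chr16:72001-72100, chr13:588101-588200, and chr09:66401-66500. For all changes but these exceptions, the adjusted p-values are given to show how far a call held over the settings and do not support the change. From pm to T1, 16 short units were called higher, and 42 with the trend over span removed, where 11.2% and 10.3% of all bins were. The unit at chr13:827401-827500 on the minus strand (330 molecules, 343 nt) was at 0 in both pm libraries, at 74.7 and 181.8 mpm in T1, at 3.597 and 12.9 in T2, and at 0 and 5.43 in T3. It was thus found almost only in T1, at least 71.4-fold higher than in pm with 3 molecules as the floor of the pm pool (adjusted p = 0.00428). It was lower in T2 than in T1 (-3.14 ± 0.93, adjusted p = 0.0458) and in T3 than in T1 (3 molecules against 311, a ratio of 1 to 52.5 with a counting interval of 17.8 to 255.9, adjusted p = 0.0126). The first call was lost without pm replicate 1 (adjusted p = 0.0537) or pm replicate 2 (0.128). The second was lost in 8 other settings, among them each pm and T1 library and T2 replicate 1 left out (0.0629 to 0.188), and the third without T3 replicate 1 (0.256) or T3 replicate 2 (0.0548).

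A further T1 unit, at chr04:1318201-1318300 on the plus strand (1539 molecules, 272 nt), had 3.30 and 1.53 mpm in pm, 325.7 and 565.3 in T1, 54.0 and 393.4 in T2, with 1.17 and 3.62 in T3. It was high in both meiotic pools and close to 0 in the other libraries. It rose from pm to T1 (6.76 ± 1.24, adjusted p = 0.00519) and fell from T1 to T3 (3 against 1137 molecules, 192-fold with a counting interval of 65.5 to 932, adjusted p = 0.00539). The first call was lost without pm replicate 1 (0.0506) or pm replicate 2 (0.138), and the second without T3 replicate 1 (0.130) or T3 replicate 2 (0.093). Its end was sharp, with 99.9% of the molecules in the window around the main end. Of the 878 molecules from its main start in T1, 291 ended in the unit (33.1%, 30.0 to 36.4%) and 581 ran past it. The T1 replicates were close (140 of 455 and 151 of 423). In T2 the summed share was 33.7% (28.8 to 39.0%), but its replicates lay far apart, at 18 of 205 and 99 of 142.

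The unit at chr04:491501-491600 on the plus strand (176 molecules, 273 nt) was a minor early end of a strongly used start. It was at 0 in both pm libraries, 36.2 and 40.5 mpm in T1, 4.80 and 70.9 in T2, with 3.501 and 9.05 in T3. Of 4323 molecules from its main start in T1, 4282 ran past the unit and 39 ended in it (0.902%, 0.642 to 1.23%). The start itself was nearly unused in pm, with 12 molecules. Against the floor the unit was at least 24.1-fold higher in T1 (adjusted p = 0.0174), a call lost in 5 settings (without either pm or either T1 library or T3 replicate 2, adjusted p from 0.0502 to 0.270).

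The unit at chr13:178301-178400 on the minus strand (237 molecules, 359 nt) had 0 and 0.76 mpm in pm, 68.1 and 58.2 in T1, 19.8 and 29.7 in T2, and 0 in both T3 libraries. It was 124-fold higher in T1 by 180 against 1 molecule (counting interval 22.0 to 4924, adjusted p = 0.00236), and at least 30.4-fold lower in T3 (adjusted p = 0.00118). These calls were lost without pm replicate 2 (0.0577) and without T3 replicate 1 (0.0576). The unit at chr16:244701-244800 on the plus strand (561 molecules, 355 nt) had 0 and 1.53 mpm in pm, 105.5 and 46.8 in T1, 19.8 and 359.9 in T2, with 7.003 and 7.24 in T3. It rose by 81.6-fold from 2 to 237 molecules (counting interval 22.3 to 678, adjusted p = 0.0472). That call was just under the threshold and was lost without any 1 of the pm, T1, or T3 libraries (adjusted p from 0.0621 to 0.341).

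Units that fell from pm to T1 included early ends that were rarely or not seen in T1 while their start stayed in use. For no unit could an early end be told apart from priming at an A-rich stretch inside a longer transcript. At chr09:43401-43500 on the minus strand (309 molecules, 160 nt) the level was 44.5 and 171.7 mpm in pm, 0.55 and 0 in T1, 4.80 and 42.6 in T2, with 7.003 and 16.3 in T3. In pm, 126 of 1338 molecules from its main start ended in the unit (9.42%, 7.91 to 11.1%). The replicates gave 11 of 335 and 115 of 1003. In T1, 1 of 2444 did (0.0409%, 0.0010 to 0.228%). The start was thus used in both pools, and the early end was seen in the pm pool. The unit was lower in T1 by 366-fold (252 against 1 molecule, counting interval 65.1 to 14508, adjusted p = 0.00545), a call lost without pm replicate 2 (0.0681).

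The unit at chr16:72001-72100 on the minus strand (179 molecules, 276 nt) had a like arrangement. Its level was 42.9 and 40.4 mpm in pm, 0 in both T1 libraries, 1.199 and 3.87 in T2, with 47.9 and 97.8 in T3. It was thus present before meiosis and again on return to growth. Of the molecules from its main start, 71 of 407 ended in the unit in pm (17.4%, 13.9 to 21.5%) and 85 of 452 in T3 (18.8%, 15.3 to 22.7%). In T1 0 of 119 did, which allows a share of up to 2.52%. The unit was at least 38.2-fold lower in T1 than in pm (adjusted p = 0.00154) and at least 62.5-fold higher in T3 than in T1 (adjusted p = 0.000125), and both calls were kept in all 17 other settings that tested it. Outside the T3 pool the unit held under 100 molecules, so the second adjusted p does not support the rise.

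The share of a start's molecules that ended early was low in T1 over the 141 units with a shared start. Over the units with at least 10 molecules from the start in a library, the median share was 12.7% and 13.3% in pm, 3.94% and 1.82% in T1, 3.06% and 22.8% in T2, with 15.2% and 28.9% in T3. T2 replicate 1 was as low as the T1 libraries, and T2 replicate 2 was above both pm libraries. The libraries also differed in their shares of short molecules, given above, and the part of these in the shares here was not tested.

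A large stand-alone unit was among those with the largest fall. The sixth largest unit, at chr13:588101-588200 on the plus strand (5226 molecules, 376 nt), had 979.7 and 3370.3 mpm in pm, 15.9 and 46.8 in T1, 74.9 and 15.5 in T2, with 3.501 and 1.81 in T3. Every later library was below both pm libraries. The fall from pm to T1 was -6.74 ± 0.96 on the log2 scale (adjusted p = 0.00179) and was called in all 18 other settings. Smaller units that fell were at chr11:328601-328700 on the plus strand (101 molecules, 327 nt), with 5.65% of the molecules of its main start running past, and chr16:790401-790500 on the plus strand (112 molecules, 144 nt), with 56.5%. The first had 9.90 and 71.7 mpm in pm and, apart from 0.599 in T2 replicate 1, was at 0 in every other library. It was at least 48.4-fold lower in T1 than in pm (adjusted p = 0.00621, lost without pm replicate 2 or T1 replicate 1 at 0.06003 and 0.0523). The second had 89.1 and 25.2 mpm in pm and 0.55 and 0 in T1, with 25.8 in T2 replicate 2. Its fall by 87 against 1 molecule (126-fold, counting interval 22.1 to 5046, adjusted p = 0.0153) was not called without either pm or either T1 library (0.0672 to 0.0834).

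Several short units were nearly confined to the T2 pool, after NDT80 had been induced. Those with the largest rises from T1 to T2 held under 100 molecules outside T2, so their adjusted p-values do not support these rises. The unit at chr02:725301-725400 on the plus strand (4709 molecules, 282 nt) had 1.65 and 13.0 mpm in pm, 1.10 and 2.08 in T1, 2591 and 468.2 in T2, with 1.17 and 0 in T3. Both T2 libraries were far above all others, and the T2 replicates differed from each other several-fold. The log2 change from T1 to T2 was 10.22 ± 1.68 (adjusted p = 0.00272), called in all 18 other settings. Of its molecules, 45.7% started in the window of the main start, and 3.3% of the molecules from that start ran past.

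The unit at chr06:237101-237200 on the minus strand (3252 molecules, 392 nt) was at 0 in pm, at 7.14 and 4.16 mpm in T1, at 684.0 and 2657 in T2, and at 31.5 and 12.7 in T3. It rose from T1 to T2 by 8.59 ± 0.89 (adjusted p = 0.000196), again in all 18 other settings. Of 6024 molecules from its main start in T2, 5280 ran past and 743 ended in the unit (12.3%, 11.5 to 13.2%). The replicates gave 237 of 3659 and 506 of 2365, so the T2 replicates differed in this share by more than counting error. A like start with a longer transcript lay at chr06:125801-125900 on the minus strand (315 molecules, 296 nt), which had 0 in pm, 0.55 and 0 mpm in T1, 39.6 and 318.6 in T2, with 1.17 and 0 in T3. By 313 against 1 molecule it was 357-fold higher in T2 than in T1 (counting interval 63.5 to 14126, adjusted p = 0.00275), a call lost with only T1 and T2 in the fit (0.069).

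At chr06:214501-214600 on the plus strand (175 molecules, 190 nt) and chr13:252801-252900 on the plus strand (126 molecules, 281 nt), all molecules came from T2. The first had 24.6 and 172.8 mpm there and the second 43.2 and 69.7. Against the floor of 3 molecules in the T1 pool they were at least 66.4-fold and 47.8-fold higher. Both reached 100 molecules through T2 alone, so no test is given.

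The units with the largest rise on return to growth were low or absent in meiosis and present at low level in pm. Each held under 100 molecules outside T3, so the adjusted p-values do not support these rises. At chr10:321101-321200 on the plus strand (190 molecules, 219 nt) the level was 11.5 and 6.87 mpm in pm, 0 in both T1 libraries, 0 and 1.29 in T2, with 102.7 and 153.9 in T3. At chr04:408101-408200 on the plus strand (203 molecules, 301 nt) it was 6.60 and 3.05 in pm, 0 in both T1 libraries, 0 and 7.74 in T2, with 67.7 and 237.2 in T3. Both T3 libraries were above all others in each case. From T1 to T3 they were at least 114-fold and 124-fold higher (adjusted p = 6.03e-05 and 0.000628), kept in all other settings tested (17 and 18).

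The units at chr14:502701-502800 on the plus strand (121 molecules, 180 nt) and chr15:698201-698300 on the plus strand (212 molecules, 274 nt) had the same order of pools. The first had 6.60 and 3.05 mpm in pm, 0 in T1, 0.60 and 0 in T2, with 53.7 and 119.5 in T3, and was at least 73.7-fold higher in T3 than in T1 (adjusted p = 0.000125). The second had 11.5 and 9.16 in pm, 0 and 1.04 in T1, 1.199 and 9.03 in T2, with 114.4 and 153.9 in T3, a 361-fold rise from 1 to 183 molecules (counting interval 64.1 to 14353, adjusted p = 0.000169). Its median span was 274 nt in each of the 7 libraries that held a molecule.

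A very short unit lay within the largest one. At chr04:145201-145300 on the minus strand (269 molecules) the median span was 54 nt, and the main start, at position 145254, was that of the largest unit, described above. The level was 18.1 and 6.10 mpm in pm, 0.55 and 0 in T1, 0.60 and 10.3 in T2, with 142.4 and 213.6 in T3. It was 474-fold higher in T3 than in T1 by 240 against 1 molecule (counting interval 84.3 to 18799.9, adjusted p = 0.000199). Of the molecules from this start, 194 of 5304 ended in the very short unit in T3 (3.66%, 3.17 to 4.20%), 13 of 2112 in pm (0.616%, 0.328 to 1.05%), and 0 of 627 in T1, which allows a share of up to 0.478%. These intervals cover counting error only and not the spread between replicates, and the difference between the pools was not tested.

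From T1 to T3, 24 units were called lower, and 66 with the trend over span removed, where 19.7% and 13.7% of all bins were. The unit at chr03:98401-98500 on the plus strand (168 molecules, 292 nt) had 11.5 and 4.58 mpm in pm, 24.2 and 70.7 in T1, 10.2 and 33.5 in T2, and 0 in both T3 libraries, at least 18.9-fold lower than T1 (adjusted p = 0.0128, lost without pm replicate 2 at 0.0542, T3 replicate 1 at 0.1998, and T3 replicate 2 at 0.146). The unit at chr09:66401-66500 on the plus strand (1341 molecules, 300 nt) had 14.8 and 3.05 in pm, 281.7 and 361.6 in T1, 40.2 and 505.6 in T2, with 5.84 and 5.43 in T3. It was lower in T3 by -4.28 ± 1.33 (adjusted p = 0.0282), which was not called without any 1 of the pm, T1, or T3 libraries (0.0521 to 0.240). Its end was sharp, and 99.5% of its molecules ended in the window around the main end.

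The median span per library was compared for the 1707 bins with at least 10 molecules in every library, of which 89 were short units. In 73 of these 89 units the median stayed under 400 nt in all 8 libraries. From pm to T1, 4 units were called, all longer, where 3.1% of the 1707 bins were called (2.46% longer and 0.644% shorter). From T1 to T2, 9 were called, 1 longer and 8 shorter, where 1.76% of all these bins were called (0.586% longer and 1.17% shorter). From T1 to T3, 8 were called, all shorter, where 5.74% were called (0.703% longer and 5.04% shorter). A span was called at an adjusted p below 0.05 with no minimum change. Small shifts are thus counted, such as -0.018 and -0.049 on the log2 scale from T1 to T3 at chr01:63001-63100 and chr13:755001-755100. Since the sum of all libraries chose the units by their median span, a unit with a long median in 1 pool had to have a short one in another. The counts of called short units are therefore a description, as are the spans of the units named here, which are given with no test. With the mean of log2 spans in place of the median, 1, 3, and 4 units were called, where 0.234%, 0.41%, and 0.586% of all these bins were.

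**Figure D5:**
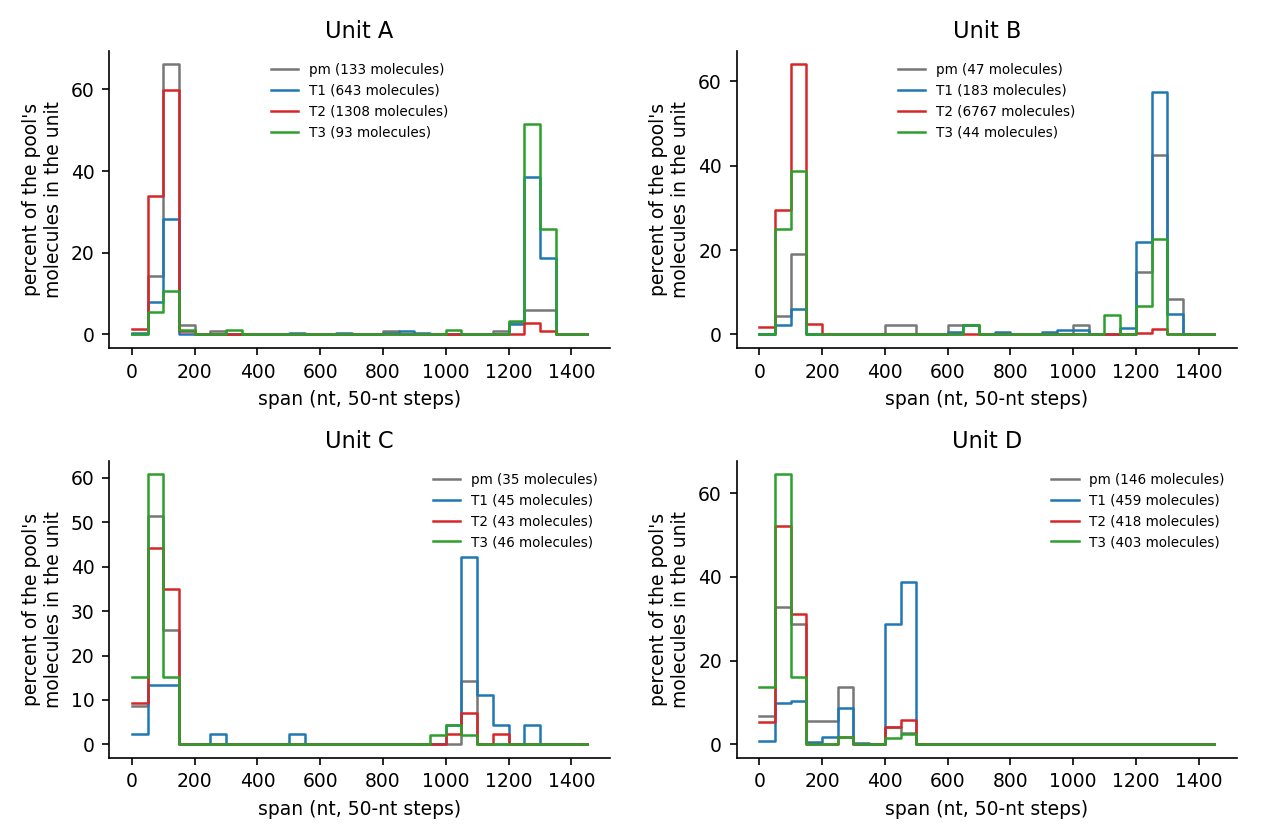
Distribution of spans (x axis, nt, in 50-nt steps) as percent of a pool's molecules in the unit (y axis), both replicates summed, for the 4 units with the largest called fall of the median span from T1 to T2: A on chromosome 9, B on chromosome 5, C on chromosome 15, and D on chromosome 14. Short and long molecules form separate groups, and the median of both T1 libraries lies above 400 nt in all 4 units while that of both T2 libraries lies below 130 nt.

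The fourth largest unit, at chr05:400101-400200 on the minus strand (7041 molecules, 115 nt), was short through T2, which gave 6767 of its molecules. Its level was 39.6 and 17.6 mpm in pm, 54.4 and 87.3 in T1, 1074 and 6418 in T2, with 30.4 and 32.6 in T3. Its median span was 1258.5 and 1238 nt in pm, 1256 and 1268 nt in T1, 115 and 114 nt in T2, with 130.5 and 121 nt in T3. In pm and T1 most molecules that ended here were thus over 1000 nt long, and in T2 and T3 most started close to the same end. The number of molecules rose from T1 to T2 by 6.06 ± 0.80 (adjusted p = 0.000772, all 18 other settings). The unit met the limit on the span through T2, the pool in which it was high, so this adjusted p does not support the rise. The main start was used little in the other pools, with 0 and 11 molecules in pm, 10 and 11 in T1, and 9 and 4 in T3. Of the 7034 molecules from this start in T2, 5148 ran past this end and 1886 ended in the unit (26.8%, 25.8 to 27.9%), with 537 of 4920 in replicate 1 and 1349 of 2114 in replicate 2.

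The unit at chr15:428201-428300 on the plus strand (169 molecules, 99 nt) had few molecules, between 5.99 and 50.7 mpm in every library. Its median span was 95 and 91.5 nt in pm, 1072 and 1077 nt in T1, 129 and 95 nt in T2, with 95 and 77 nt in T3. The T1 libraries alone had the long median. The median span rose from pm to T1 by 3.53 on the log2 scale and fell to T2 and T3 by 3.28 and 3.65.

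The unit at chr09:64601-64700 on the minus strand (2177 molecules, 103 nt) had 110.5 and 50.4 mpm in pm, 211.4 and 268.1 in T1, 136.1 and 1394 in T2, with 58.4 and 77.9 in T3. Its median span was 117 and 120.5 nt in pm, 1257 and 1267 nt in T1, 102 and 101 nt in T2, with 1274 and 1267 nt in T3. Here the long molecules led in both T1 and T3. The median span was longer in T1 than in pm by 3.41 on the log2 scale and differed by -3.64 between T2 and T1. In such units 2 groups of spans are mixed, and the median moves from one to the other when their balance crosses 50%.

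The unit at chr14:651301-651400 on the plus strand (1426 molecules, 104 nt) had 163.3 and 35.9 mpm in pm, 134.0 and 223.4 in T1, 38.4 and 456.6 in T2, with 185.6 and 441.7 in T3. Its median span was 106 nt in both pm libraries, 427 and 453 nt in T1, 89.5 and 84.5 nt in T2, and 66 nt in both T3 libraries. It was longer in T1 than in pm by 2.05 on the log2 scale and differed by -2.74 between T3 and T1. The next stretch, chr14:651401-651500, also changed its span in all 3 contrasts and belongs to the same locus, so the counts above hold this locus more than once.

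A single unit went the other way. At chr05:35401-35500 on the minus strand (1082 molecules, 334 nt) the level was 249.0 and 212.9 mpm in pm, 93.4 and 110.1 in T1, 101.9 and 68.4 in T2, with 70.0 and 168.4 in T3. Its median span was between 325 and 334 nt in the pm, T1, and T3 libraries and 715 nt in both T2 libraries (longer than in T1 by 1.11 on the log2 scale). The main start of the short molecules gave 38 and 91 molecules ending in the unit in pm and 5 and 3 in T2.

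Leaving out molecules under 100 nt changed the description of 3 units with at least 200 molecules most. The fifth largest unit, at chr11:531901-532000 on the plus strand (5874 molecules), had a median of 50 nt with all molecules and of 1164 nt without those under 100 nt, which made up 69.5% of it. Its median per library was 48, 51, 63, 1146, 803, 50, 48, and 49 nt in the order pm, T1, T2, and T3, so 1 replicate each of T1 and T2 was dominated by long molecules and the other by very short ones. Its level was 381.0 and 347.2 mpm in pm, 523.9 and 252.5 in T1, 598.3 and 1348 in T2, with 770.3 and 2332 in T3. The rise from T1 to T2 (2.08 ± 0.61, adjusted p = 0.0453) was called in 8 of 18 other settings and was lost without either pm or either T1 library (0.0729 to 0.223). The rise from T1 to T3 (3.08 ± 0.62, adjusted p = 0.00346) was called in 16. With the trend over span removed its change was -0.91 (adjusted p = 0.442) in T2 and -1.26 (adjusted p = 0.231) in T3.

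A start on the same chromosome, at chr11:527901-528000 on the plus strand (759 molecules, 51 nt), had a different course. It had 461.8 and 266.3 mpm in pm, 23.6 and 4.16 in T1, 5.99 and 72.2 in T2, with 7.003 and 19.9 in T3. It fell from pm to T1 by 5.34 on the log2 scale (± 0.97 SE, adjusted p = 0.00503), in all 18 other settings, the fit with the trend over span removed among them (-2.90, adjusted p = 0.00477). The unit at chr08:423501-423600 on the minus strand (227 molecules, 69 nt) had 21.4 and 6.87 in pm, 8.79 and 1.04 in T1, 3.00 and 86.4 in T2, with 40.9 and 146.6 in T3. It was higher in T3 than in T1 (5.46 ± 1.497, adjusted p = 0.0167), a call that ended without T1 replicate 2 (0.0791) or T3 replicate 2 (0.110) and with the trend over span removed (1.52, adjusted p = 0.146). Its T2 replicates lay on either side of the pm values.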

How the data were processed

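TIF-seq libraries of 4 pools of SK1 yeast with 2 replicates each were used. Per the labels and the study's methods, capped RNA was ligated to an adaptor with an 8-nt unique molecular identifier (UMI), reverse transcribed from oligo-dT, circularized, and sequenced on a NextSeq 500. The input of total RNA is 2.5 μg by the labels but differs in the methods. The authors mapped the reads to the SK1 assembly, kept uniquely mapped pairs on 1 chromosome, and made pairs of positions with bedtools. The submitters' processing notes name cutadapt 1.16, STAR 2.5.3a, and bedtools. The deposited files hold start and end positions of both reads and a mapping quality score, which was 255 on every line. No counts per feature were used from the authors. Each line was taken as 1 molecule, since lines that matched in both ends and the UMI were not found within a library. Lines that repeated the 5′ end and UMI of another line, with a different 3′ end, made up 5.41% (T1 replicate 2) to 8.88% (T3 replicate 1). Whether these were copies of 1 molecule was not tested. With each 5′ end and UMI counted once, 425 short units were found. Priming from A-rich stretches inside transcripts could not be checked, because the SK1 sequence was not used here, and no sequence is printed for the same reason.

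Molecules were counted per 100-nt bin of 3′ ends and strand and compared with limma voom in 1 fit of all 8 libraries with the pool as the only term and median-of-ratios scaling. P-values were adjusted over the 6056 bins by Benjamini-Hochberg. Labels do not say what separates the replicates, so p-values measure only the spread between these samples. Median spans were compared with limma on the log2 scale. Alternatives comprised other scalings, limma-trend, other limits and bins, a fit of the stages compared only, leaving out single libraries, and a replicate block. Of these, 4 were added after the data were seen. The members and lists were chosen with earlier results of these data known. The units named were the 10 with most molecules, up to 5 with the largest called rise and fall per contrast, those nearest the limits, up to 3 with the largest called rise and fall of the span, and the 3 with at least 200 molecules whose median moved most without molecules under 100 nt. The steps were tested on simulated data. A fold against a pool at 0 used a floor of 3 molecules over the pool. Shares carry exact (Clopper-Pearson) intervals at 95%. Fits were run in R 4.3.3 with limma 3.58.1, and the other steps in Python 3.11.15 with scipy 1.17.1, numpy 2.4.6, pandas 2.3.3, and matplotlib 3.10.9.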

Additional observations from a re-analysis of the deposited data

Results flagged for a closer look

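The spike-in pGIBS-LYS, an RNA added to the samples and tested in no comparison of pools, gave short molecules in every library. Over all libraries 796 of 9738 of its molecules spanned under 400 nt (8.17%, exact 95% interval 7.64 to 8.74%), while its median span was 1057 nt. It is listed because short molecules were found outside the yeast data at all, which any count above 3 would have met, and this says nothing about the size of the share. By library it ranged from 4.37% (T3 replicate 1) to 12.5% (pm replicate 2). Its part in the short units of yeast was not tested.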

How the results depend on the processing

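Of 185 other values of the 12 main results, 125 stayed close and 60 moved. Counts and shares have no sign, so only the overlap with the opposite strand could reverse, and it did not. A count was close within a factor of 1.5 of the main value. A pool's share was close if it differed by less than the SD of its 2 replicates. The overlap with the opposite strand was close if it kept its sign and its permutation p was not below 0.05. Of 869 values for 52 changes of named units, 755 kept direction and side of the threshold, 102 kept the direction and lost the call, 4 gained it, and 8 changed sign. With the trend over span removed, chr11:531901-532000 turned to -0.91 (T2 against T1) and -1.26 (T3 against T1). The uncalled chr12:322501-322600 turned to 0.63 and -0.79 when scaled on the short units, to 0.023 and -0.35 with the trend removed (T1 against pm, then T2 against T1). For T3 against T1 it turned to -0.12 by totals and -1.19 scaled on the short units. The number of units was 776 at a minimum of 50 molecules, 247 at 200, 242 below 300 nt, 784 below 500 nt, 289 with each pair of positions counted once, and 354 to 428 with a library left out. The share in pm moved to 2.91% without molecules under 100 nt, 3.59% and 2.95% at minimums of 50 and 200 molecules, 1.195% and 8.65% at limits of 300 and 500 nt, 3.18% and 3.38% with bins of 50 and 200 nt, and 2.85% with pairs counted once. In T1 it was 1.91% and 1.61% at the 2 minimums, 0.58% and 5.39% at the 2 limits, and 1.53% with pairs once. In T2 it was 3.18% and 10.6% at 300 and 500 nt, and in T3 2.30% and 7.10% at 300 and 500 nt. Called units, in the order T1 against pm, then T2 and T3 against T1, were 58, 56, and 113 with at least 200 molecules (27.6%, 17.7%, and 41.9% of all bins tested). They were 50, 57, and 127 below 300 nt, and 191, 168, and 294 below 500 nt, limits that leave the calls over all bins as they were. With only the 2 pools in the fit they were 210 and 32 in the first contrasts (33.1% and 6.56% of all bins). With units scaled on themselves, a setting added later, they were 49 and 56 (21.4% and 20% of all bins). Without a filter they were 174 and 187, where 5.85% and 6.77% of the 78657 bins with at least 1 molecule were called. Every unit holds at least 100 molecules, so the units are not compared with those shares. With pairs counted once 67 were called in the second (15% of all bins). Without T2 replicate 2 and T3 replicate 2 the first gave 214 (33.9%). With a library left out the counts ranged from 11 to 214, from 23 to 246, and from 90 to 270 (all bins: 4.34% to 35.3%, 4.05% to 24.6%, and 16.4% to 51.4%), and the cause was not tested. These ranges of counts and of shares over all bins are each taken alone, so their ends need not come from the same fit. For T2 against T1 the highest count came without T2 replicate 1 and the highest share without T2 replicate 2. For T3 against T1 the lowest count came without T3 replicate 2 and the lowest share without T3 replicate 1. Where a pool is left with 1 library, it is assumed to vary like the others. Changed spans numbered 2 and 4 at 20 molecules per library (3.93% and 1.59% of all bins compared), 1, 3, and 4 by the mean of log2 spans (0.234%, 0.41%, and 0.586%), 2 and 5 without molecules under 100 nt (2.79% and 1.42%), and 4 to 7, 9 to 12, and 5 to 11 with a library left out (2.17% to 4.22%, 1.46% to 4.04%, and 2.87% to 7.73%). For the spans, too, the ends of the ranges of counts and of shares with a library left out need not come from the same fit. The replicate numbers do not mark pairs: deviations of same-numbered samples correlated between -0.37 and 0.17. With a replicate block, 94, 116, and 201 units were called (19.4%, 14.2%, and 36.3% of all bins), and 3, 8, and 5 changed their span (2.28%, 1.23%, and 3.4%). Of the named changes it ended the rise of chr13:755001-755100 from T1 to T2 (adjusted p = 0.0538). Depth limits units of under 200 molecules, of which there were 192.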
